A study of Homo sapiens with 12 samples.

Results

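The hnRNP and SR genes encode RNA-binding proteins that bind pre-mRNA in the nucleus and take part in choosing splice sites. They were found here by name, as genes whose symbol starts with HNRNP, HNRPDL, HNRPLL or SRSF and a digit, with a CPM (counts scaled to a library's total) of at least 1 in at least 4 of 12 libraries. Of 18969 genes listed, 35 matched by name and 33 passed the CPM limit, namely 21 hnRNP genes and 12 SRSF genes. SRSF2IP, which encodes a protein named for its interaction with SRSF2 and is now called SCAF11, matched the pattern without being an SR family gene. The members were chosen by name and by these CPM levels over all 12 libraries, a rule that does not use group labels. The choice of these genes was made with earlier results of these data known. Counts of members called lower or higher are therefore descriptive and give no independent support. Each of the 33 passed the limit in every library, so none entered through a single group. Just inside it stood HNRNPA1L2 at 20.4 to 25.3 CPM and HNRPLL at 46.1 to 57.2 CPM. Outside it stood SRSF12, at 0 to 0.222 CPM, and HNRNPCL1, with no count in any library.

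The libraries are RNA sequencing of HCT116 cells, a long-established line from a human colorectal carcinoma, kept in RPMI-1640 medium with fetal bovine serum. In the UNC0642 recovery group (4 libraries), cells had 24 h without methionine in the presence of UNC0642 and then 24 h with methionine and without the inhibitor. The DMSO recovery group (4 libraries) is labelled with DMSO in place of the inhibitor and otherwise had the same media and times. The group labelled 0 h (4 libraries) had no recovery, and the design text sets profiles before recovery against those after it. Whether these cells had already gone without methionine is not stated, and they also differ from the recovery groups in time in culture. UNC0642 inhibits EHMT2 (G9a) and EHMT1 (GLP), which methylate lysine 9 of histone H3. Separate cultures are not mentioned for replicates, and p-values then reflect only the spread among these libraries, which may be technical.

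Heterogeneous nuclear ribonucleoproteins (hnRNPs) coat nascent transcripts and often repress nearby splice sites, while SR proteins, named for their arginine- and serine-rich domain, mostly bind exonic enhancers and help recruit the spliceosome. Many of these genes control their own level through alternative exons that send the transcript to nonsense-mediated decay. Several hnRNPs are methylated on arginine, a reaction that uses S-adenosylmethionine, which cells make from methionine.

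Promoter sequences were available for 31 of the 33 members in RefSeq (GRCh38.p14). Those of the 3 members that fell most after both recoveries and of 2 A/B members that were lower after UNC0642 than after DMSO recovery are printed here as the 250 bases before an annotated start. Capitals mark a CCAAT box (CCAAT or ATTGG), a GC box (GGGCGG or CCGCCC), an E-box (CACGTG) and an ETS core (CCGGAAG or CTTCCGG). Both strands were searched, and TATAAA was searched too but does not occur in these windows.
HNRPDL: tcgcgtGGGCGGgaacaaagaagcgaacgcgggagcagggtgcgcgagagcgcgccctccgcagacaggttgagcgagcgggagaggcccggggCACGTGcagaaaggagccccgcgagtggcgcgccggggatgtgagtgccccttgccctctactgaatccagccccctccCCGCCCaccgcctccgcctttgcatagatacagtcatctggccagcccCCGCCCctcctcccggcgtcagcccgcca
HNRNPR: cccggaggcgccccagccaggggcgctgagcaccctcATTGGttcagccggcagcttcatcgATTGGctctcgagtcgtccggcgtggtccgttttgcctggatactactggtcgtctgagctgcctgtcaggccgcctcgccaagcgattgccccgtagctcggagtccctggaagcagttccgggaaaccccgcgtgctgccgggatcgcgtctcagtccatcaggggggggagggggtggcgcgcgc
HNRNPF: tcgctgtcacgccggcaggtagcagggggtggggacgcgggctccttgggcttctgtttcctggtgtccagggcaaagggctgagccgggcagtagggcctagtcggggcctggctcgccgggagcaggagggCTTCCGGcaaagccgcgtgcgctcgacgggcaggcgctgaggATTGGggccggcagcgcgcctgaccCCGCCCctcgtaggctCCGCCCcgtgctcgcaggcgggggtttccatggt
HNRNPA2B1: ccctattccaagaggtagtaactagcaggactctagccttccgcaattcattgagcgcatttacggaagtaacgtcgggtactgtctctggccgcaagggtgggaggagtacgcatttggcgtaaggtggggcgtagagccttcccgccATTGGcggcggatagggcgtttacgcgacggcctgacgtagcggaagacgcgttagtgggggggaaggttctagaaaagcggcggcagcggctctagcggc
HNRNPA3: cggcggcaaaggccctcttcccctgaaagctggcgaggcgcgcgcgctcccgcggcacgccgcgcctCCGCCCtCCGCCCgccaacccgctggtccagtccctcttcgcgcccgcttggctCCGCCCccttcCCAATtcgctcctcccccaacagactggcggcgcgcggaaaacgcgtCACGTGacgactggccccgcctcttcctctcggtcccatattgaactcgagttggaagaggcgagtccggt

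The HNRPDL window (current symbol HNRNPDL) lies at chr4:82430226-82430475 on the minus strand, that of HNRNPR at chr1:23344285-23344534 on the minus strand and that of HNRNPF at chr10:43408858-43409107 on the minus strand. The HNRNPA2B1 window lies at chr7:26200747-26200996 on the minus strand and that of HNRNPA3 at chr2:177212544-177212793 on the plus strand. Their G and C content was 70.8% for HNRPDL, 68% for HNRNPR, 72.4% for HNRNPF, 59.2% for HNRNPA2B1 and 70.4% for HNRNPA3. Over the 31 members the median was 66%, against 59.2% over 27305 genes with a promoter, taking for each gene its window with the highest content. A CCAAT box was found in 18 of 31 members (58.1%, against 37% of all genes), a GC box in 20 (64.5%, against 46.2%) and an E-box in 6 (19.4%, against 7.73%). An ETS core was found in 5 (16.1%, against 10.2%) and the letters TATAAA in 6 (19.4%, against 13%). These counts take any annotated start of a gene, while the printed windows are the first start listed. In the printed windows the CCAAT box occurred in HNRNPR, HNRNPF, HNRNPA2B1 and HNRNPA3, and in HNRPDL it occurred at another start. The GC box occurred in HNRPDL, HNRNPF and HNRNPA3, the E-box in HNRPDL and HNRNPA3, and the ETS core in HNRNPF. A match describes letters in this window and is not a measured binding site.

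Library totals were 14658103 to 20179829 expected counts. Enough counts for a test were found in 12741 genes, with a biological coefficient of variation of 3.44%. CPM below are scaled by TMM factors, which correct for differences in library composition, unless stated otherwise. These factors averaged 1.015 after UNC0642 recovery, 1.011 after DMSO recovery and 0.974 at 0 h, so changes against 0 h depend somewhat on the scaling. Effective lengths, which RSEM shortens for fragment size, were below gene lengths by 101 to 106 bases in 5 libraries (short gap) and by 119.95 to 127 bases in 7 (long gap). Each group held libraries of both classes. Epithelial markers summed to 5760 to 5927 CPM after UNC0642 recovery, 5716 to 5838 CPM after DMSO recovery and 4882 to 4992 CPM at 0 h, scaled by totals. The sum was mostly KRT8, KRT18 and KRT19. Of the 7 epithelial genes 5 (these 3, CDH1 and CLDN4) were called higher against 0 h after each recovery, and CLDN3 was not called. Over all genes tested 23.4% were higher after UNC0642 recovery and 22.4% after DMSO recovery. EPCAM was called lower, at -0.18 ± 0.02 after UNC0642 and -0.10 ± 0.02 after DMSO recovery. Markers of blood, fibroblast and endothelial cells were summed in the same way (10 genes, none at 0 in every library, mostly COL1A1). They were at 28.7 to 36.4 CPM after UNC0642 recovery, 27.9 to 36.1 CPM after DMSO recovery and 20.7 to 42.9 CPM at 0 h. COL1A2, a fibroblast collagen, was above 1 CPM in 6 libraries (UNC0642 recovery 3 and 4, DMSO recovery 1, and 0 h 1, 2 and 3). Of 7 of these markers tested, 2 were lower and 1 higher after UNC0642 recovery against 0 h, and 5 were lower and 2 higher after DMSO recovery. Over all genes tested 23.6% were lower after UNC0642 recovery and 21.7% after DMSO recovery. The globin gene HBB had log2 fold changes of -1.79 ± 0.46 after UNC0642 and -1.72 ± 0.45 after DMSO recovery and HBA1 of -1.02 ± 0.30 and -1.36 ± 0.32, all called. HBA2 (-1.68 ± 0.57), COL1A2 (-2.49 ± 0.81) and COL3A1 (-1.95 ± 0.69) were lower and VWF (1.41 ± 0.52) higher after DMSO recovery, and COL1A1 was higher after UNC0642 (0.28 ± 0.09) and DMSO recovery (0.22 ± 0.09). The leukocyte gene PTPRC was at most at 0.124 CPM and the endothelial gene PECAM1 at 0.227 CPM. HBB was at most at 2.41 CPM, HBA1 at 1.72 CPM and VWF at 0.803 CPM, scaled by totals. The part of these traces in the results was not tested, and some counts without those libraries are given beside the results.

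The members together took 1.69 ± 0.0053% of all counts after UNC0642 recovery, 1.73 ± 0.0145% after DMSO recovery and 1.85 ± 0.0198% at 0 h (SD, n = 4 each). The groups did not overlap, with 1.68% to 1.70% after UNC0642 recovery, 1.72% to 1.75% after DMSO recovery and 1.83% to 1.87% at 0 h. Less RNA per cell and fewer cells in a given state cannot be told apart in bulk samples.

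Levels per transcript length (FPKM, fragments scaled to transcript length and library size) differed widely between members. HNRNPA1, a shuttling protein that commonly represses splice sites, was the most abundant, at 1041 ± 8.45 FPKM after UNC0642 recovery, 1108 ± 20.7 after DMSO recovery and 1158 ± 16.1 at 0 h. Next came HNRNPA2B1, its close relative, at 483 ± 4.96 FPKM after UNC0642 recovery, 517 ± 6.89 after DMSO recovery and 544 ± 8.15 at 0 h. HNRNPK, a poly(C)-binding protein with KH domains, stood at 369 ± 7.0 FPKM after UNC0642 recovery, 381 ± 1.87 after DMSO recovery and 368 ± 4.89 at 0 h. Other members lay near it at 0 h, namely HNRNPD at 384 ± 14.1 FPKM, HNRNPC at 378 ± 6.13, HNRNPAB at 372 ± 2.67 and HNRNPH1 at 362 ± 5.03. In the order HNRNPD, HNRNPC, HNRNPAB and HNRNPK, each neighbour differed at 0 h by less than the larger of the SDs. Among SR genes SRSF2 was highest at 0 h (321 ± 10.9 FPKM), followed by SRSF9 (272 ± 5.72 FPKM) and SRSF3 (176 ± 5.36 FPKM). At the low end stood SRSF8 (13.1 ± 0.699 FPKM), an intronless copy of SRSF2, and HNRNPA1L2 (11.1 ± 1.13 FPKM), a copy of HNRNPA1. Reads of such near-identical copies can be split between them, so values of HNRNPA1L2 and SRSF8 are uncertain.

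**Figure D1:**
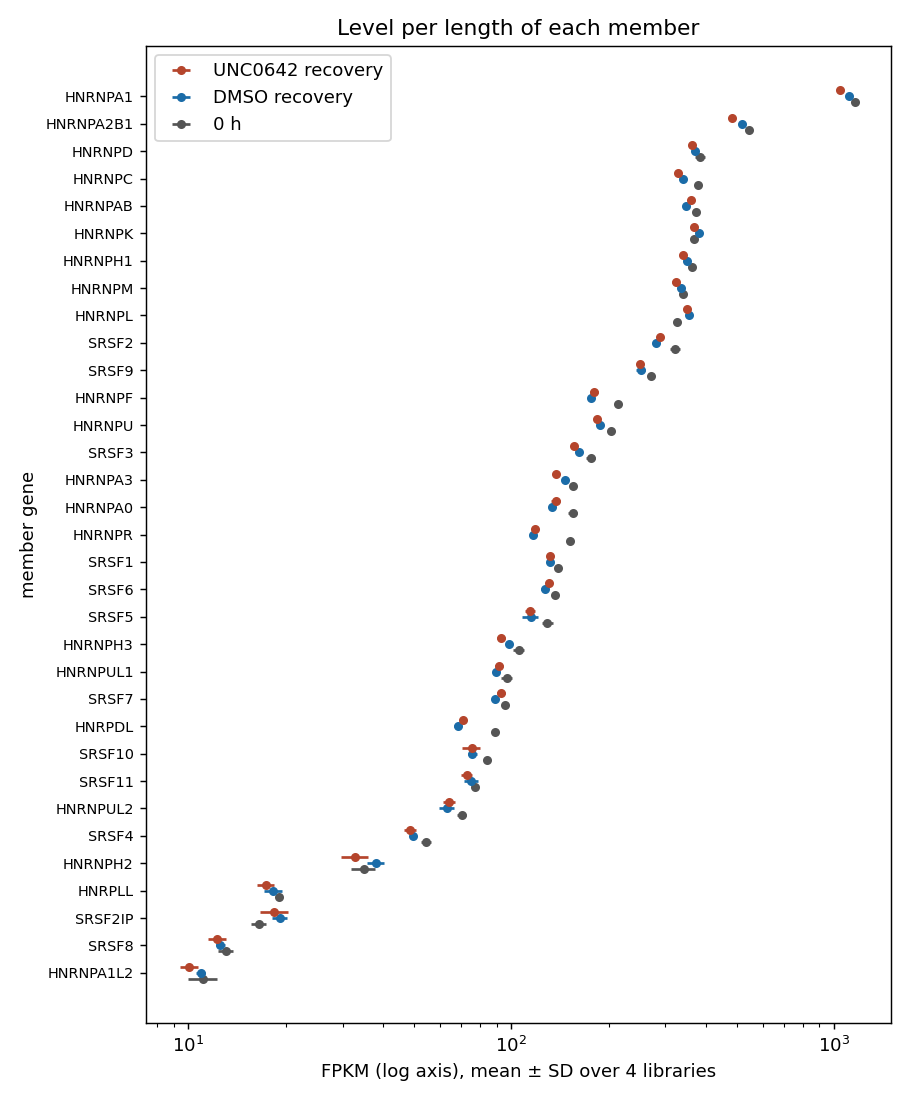
FPKM of each of the 33 members on a log axis, with points for the mean and bars for the SD over 4 libraries in the UNC0642 recovery, DMSO recovery and 0 h groups. HNRNPA1 stands alone near 1158 FPKM at 0 h, and the differences between groups are small beside those between genes.

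Most hnRNP and SR genes were lower after DMSO recovery than at 0 h. Of 33 members 26 fell, 2 rose and 5 were not called (edgeR quasi-likelihood test, Benjamini-Hochberg adjusted p under 0.05 over all 12741 genes tested). Over all genes tested 44.1% were called, 21.7% lower and 22.4% higher, and of genes at least as abundant as the least abundant member 32.6% fell. The median log2 fold change of the members was -0.16, against 0.01 over all genes. In 25 members every DMSO library was below every 0 h library and in 2 every one was above, against 19% and 19.3% of all genes. Scaled by library totals alone, 24 members fell and 2 rose, where 14.4% of all genes fell and 30% rose. Within the libraries of the long gap 26 members fell, where 2326 of all genes fell, against 2766 in all libraries. The short-gap libraries hold a single DMSO library, and their count lies within the range given at the end. Without the 6 libraries with COL1A2, which leaves a single 0 h library, 24 fell.

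**Figure D2:**
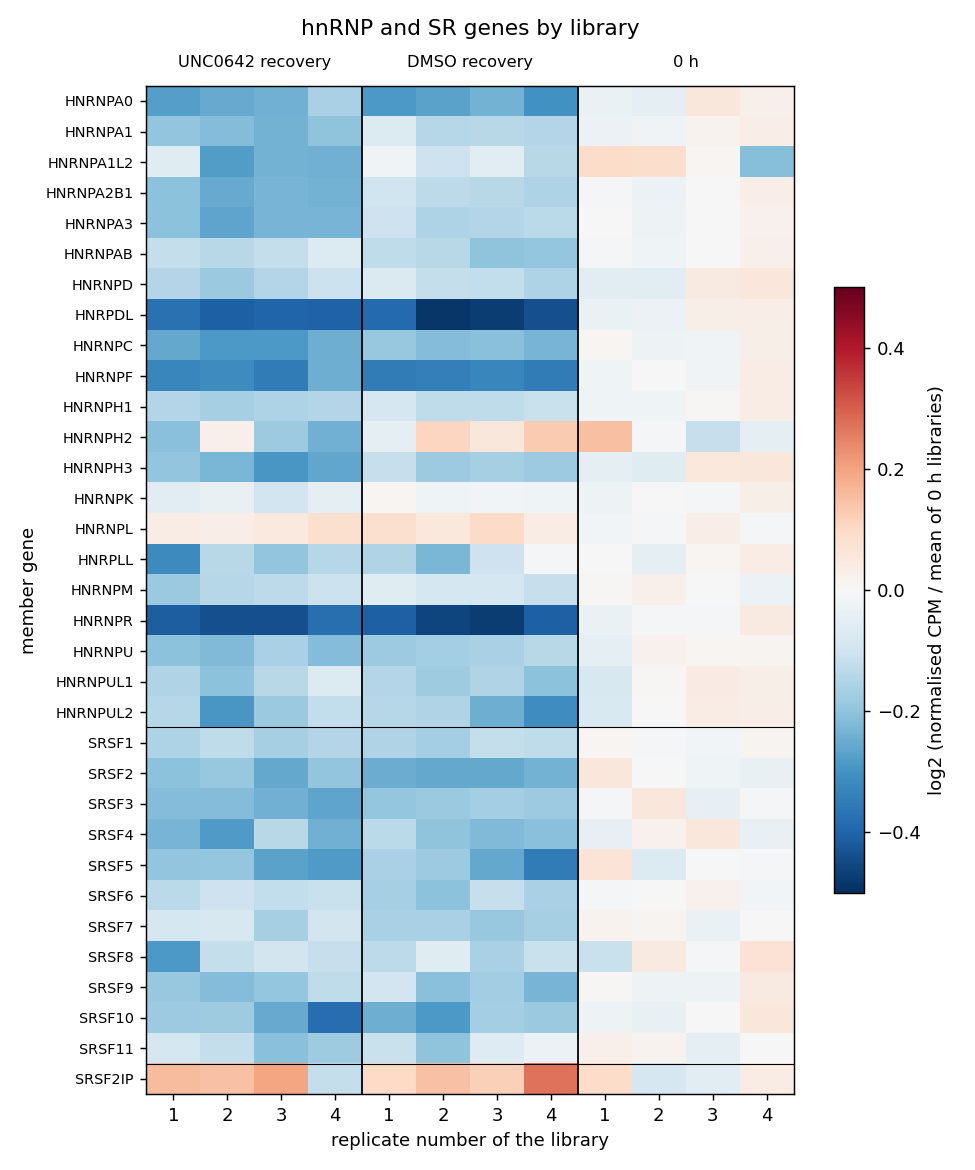
Each cell is the log2 ratio of a member's normalised CPM in a library to its mean over the 4 libraries at 0 h, with genes in rows and the 4 libraries of the UNC0642 recovery, DMSO recovery and 0 h groups in columns. Lines part hnRNP genes, SR genes and SRSF2IP, and nearly every row is blue in the 8 recovery libraries, most deeply for HNRPDL, HNRNPR and HNRNPF.

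HNRPDL, HNRNPR and HNRNPF had the largest falls. HNRPDL, a relative of HNRNPD that regulates its own transcript through a poison exon, had 241, 234, 236 and 235 CPM after UNC0642 recovery, 238, 223, 224 and 229.8 CPM after DMSO recovery and 305, 305, 318 and 319 CPM at 0 h. Both recovery groups lay below 0 h without overlap, 1.32-fold lower after UNC0642 recovery (log2 fold change -0.40 ± 0.03, SE, adjusted p = 9.08e-14 by edgeR) and 1.36-fold lower after DMSO recovery (-0.44 ± 0.03, adjusted p = 5.74e-15). HNRNPR, an RRM protein closely related to SYNCRIP, had 294, 289, 289 and 302 CPM after UNC0642 recovery, 295, 285, 282 and 295 CPM after DMSO recovery and 383, 389.9, 389 and 404 CPM at 0 h. It was 1.33-fold lower after UNC0642 recovery (-0.42 ± 0.03, adjusted p = 7.57e-15 by edgeR) and 1.35-fold lower after DMSO recovery (-0.44 ± 0.03, adjusted p = 2.96e-15), and the recovery groups overlapped each other. HNRNPF, which binds runs of G in RNA, had 447, 451, 440.0 and 473 CPM after UNC0642 recovery, 439.7, 442, 447 and 440.4 CPM after DMSO recovery and 553, 561, 554 and 575 CPM at 0 h. All 8 recovery libraries were below the 4 at 0 h, by 1.24-fold after UNC0642 recovery (-0.31 ± 0.02) and 1.27-fold after DMSO recovery (-0.34 ± 0.02). These 3 kept their calls against 0 h under each of the settings tried.

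HNRNPA0, an A/B family member known for binding AU-rich mRNAs, had 375, 381, 384 and 406 CPM after UNC0642 recovery, 372, 377, 385 and 368 CPM after DMSO recovery and 444, 438, 472 and 462 CPM at 0 h. It was lower in all 8 recovery libraries than at 0 h, with log2 fold changes of -0.23 ± 0.03 after UNC0642 and -0.27 ± 0.03 after DMSO recovery. HNRNPC, which binds uridine tracts and limits the use of cryptic exons, had 1013, 991, 992 and 1020.3 CPM after UNC0642 recovery, 1061, 1041, 1046 and 1029.8 CPM after DMSO recovery and 1219, 1188, 1195 and 1235 CPM at 0 h. Here the 3 groups were separate in order, lowest after UNC0642 recovery, with log2 fold changes against 0 h of -0.27 ± 0.02 after UNC0642 and -0.21 ± 0.02 after DMSO recovery. The difference of HNRNPC between the recoveries was -0.06 ± 0.02 and was not called (adjusted p = 0.0989 by edgeR), though it was with the length-gap class as a covariate.

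The hnRNP U family, nuclear matrix-associated proteins, fell in 3 of 3 genes after DMSO recovery, where 21.7% of all genes fell. The log2 fold changes were -0.16 for HNRNPU, -0.17 for HNRNPUL1 and -0.21 for HNRNPUL2. HNRNPM, a regulator of exon skipping, fell more narrowly (-0.09 ± 0.02) and was not called with library totals alone. HNRNPD, also called AUF1, which binds AU-rich elements, changed by -0.12 ± 0.03, and HNRNPAB by -0.16 ± 0.02. With log2 FPKM the change of HNRNPD was -0.05 and was not called (adjusted p = 0.124 by limma). In the F/H family HNRNPH1 (-0.11 ± 0.02) and HNRNPH3 (-0.16 ± 0.03) fell beside HNRNPF, while HNRNPH2 was at 0.06 ± 0.05 and was not called. HNRPLL (current symbol HNRNPLL), known in T cells for CD45 splicing, was at -0.12 ± 0.05 and HNRNPA1L2 at -0.08 ± 0.07, neither called. HNRPLL lay near the threshold (adjusted p = 0.0576 by edgeR) and was called lower under 7 of 28 alternatives, among them RLE size factors (adjusted p = 0.0493) and leaving out DMSO recovery 4 (log2 fold change -0.16, adjusted p = 0.0141).

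HNRNPK had 1029.6, 1041, 999 and 1035 CPM after UNC0642 recovery, 1074, 1052, 1059 and 1053 CPM after DMSO recovery and 1048, 1069, 1064 and 1089 CPM at 0 h. Its DMSO libraries overlapped those at 0 h (-0.01 ± 0.02, 95% interval -0.06 to 0.03, adjusted p = 0.689 by edgeR). The UNC0642 libraries were below those at 0 h by a small step (-0.06 ± 0.02, adjusted p = 0.0192), a direction that turned with library totals alone and with FPKM, where the log2 fold change was 0.0029 and 0.0024. HNRNPK thus had no direction after UNC0642 recovery that held under each scaling.

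HNRNPL and SRSF2IP were the 2 members that rose after DMSO recovery. HNRNPL, which binds CA repeats and CA-rich RNA, had 657, 654, 663 and 677 CPM after UNC0642 recovery, 675, 664, 683 and 657 CPM after DMSO recovery and 634, 635, 655 and 636 CPM at 0 h. Every DMSO library was above every 0 h library, by a log2 fold change of 0.07 ± 0.02 (adjusted p = 0.0121 by edgeR), while the UNC0642 libraries overlapped those at 0 h, where 0 h 3 was highest (0.05 ± 0.02, adjusted p = 0.0529). The rise after DMSO recovery was not called without DMSO recovery 3 (adjusted p = 0.0538 by edgeR, with a range of 1.91e-05 to 0.205 across alternatives), with a log2 fold change of 0.06. In the short-gap libraries and without the libraries with COL1A2 the fold change was as large (0.07 in both) but was not called over fewer libraries. SRSF2IP had 142, 140.4, 145 and 117 CPM after UNC0642 recovery, 136, 140.4, 138 and 153 CPM after DMSO recovery and 135, 119.6, 122 and 130.1 CPM at 0 h. Its DMSO libraries were all above those at 0 h (0.16 ± 0.05, adjusted p = 0.00701 by edgeR), but the call was lost with DESeq2 (log2 fold change 0.16, adjusted p = 0.0664), where the rise was about as large, and when a trend with gene length was removed (0.08, adjusted p = 0.145, with a range of 9.31e-05 to 0.358 across alternatives).

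**Figure D3:**
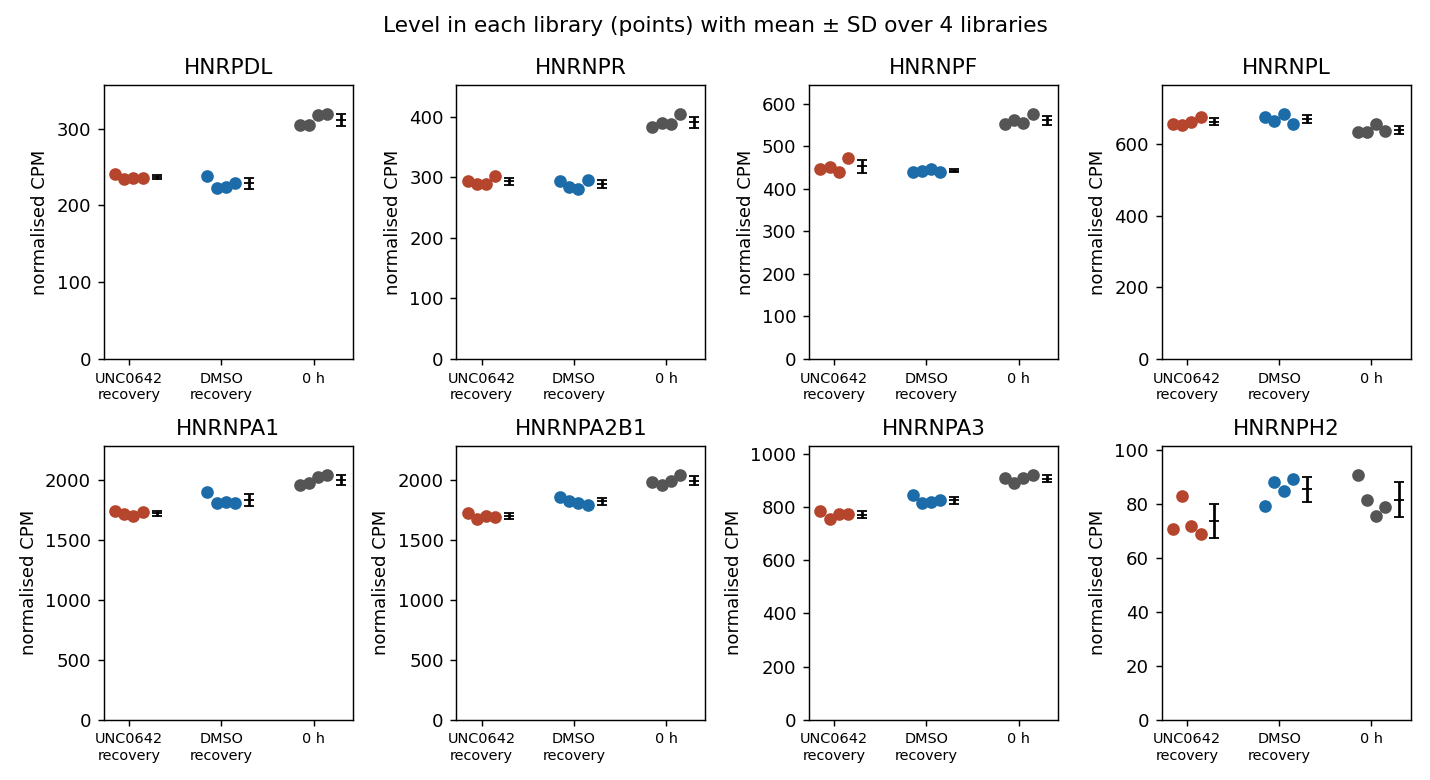
Normalised CPM of 8 members in each library (points, axes from 0), with the mean and SD over 4 libraries to the right of each group. In HNRPDL, HNRNPR and HNRNPF both recovery groups sit below 0 h at nearly the same level, in HNRNPA1, HNRNPA2B1 and HNRNPA3 the UNC0642 libraries sit below the DMSO libraries, and HNRNPL is the gene whose DMSO libraries lie above those at 0 h.

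Nearly all SR genes were lower after DMSO recovery. Leaving SRSF2IP aside, 10 of 11 fell after DMSO recovery with a median log2 fold change of -0.18. Over all genes tested 21.7% fell, and 32.6% of those at least as abundant as the least abundant member. The remaining SR gene, SRSF8, was at -0.12 ± 0.05 (adjusted p = 0.0531 by edgeR). SRSF8 was called lower under 9 of 28 alternatives, among them RLE size factors (adjusted p = 0.0453) and the length trend removed (log2 fold change -0.16, adjusted p = 0.00694). SRSF2, which binds exonic enhancers and links transcription to splicing, averaged 569 ± 11.3 CPM after UNC0642 recovery, 555 ± 3.64 after DMSO recovery and 659.5 ± 19.1 at 0 h (SD, n = 4 each). It had the largest fall among SR genes after DMSO recovery (-0.25 ± 0.02). SRSF3, the smallest SR protein and one with a role in mRNA export, averaged 467 ± 7.54 CPM, 483 ± 3.29 CPM and 548 ± 15.3 CPM in the same groups (-0.18 ± 0.02 after DMSO recovery). SRSF1, the founding member and a known oncoprotein, averaged 694 ± 8.56 CPM after UNC0642 recovery, 698 ± 11 CPM after DMSO recovery and 769 ± 7.42 CPM at 0 h (-0.14 ± 0.02 after DMSO recovery).

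The other SR genes changed within a narrow band after DMSO recovery. SRSF5 changed by -0.24 ± 0.04, SRSF10, which acts as a repressor when dephosphorylated, by -0.22 ± 0.04, and SRSF4 by -0.19 ± 0.03. SRSF9 changed by -0.18 ± 0.03, SRSF7, which like SRSF3 binds export factors, by -0.17 ± 0.03, and SRSF6 by -0.16 ± 0.02. SRSF11 had the smallest called change (-0.10 ± 0.03), lost without DMSO recovery 2 (adjusted p = 0.101 by edgeR, with a range of 0.00386 to 0.374 across alternatives) and with library totals alone.

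After UNC0642 recovery 31 of 33 members were lower than at 0 h, 0 were higher and 2 (HNRNPL and SRSF2IP) were not called. HNRNPL was called higher under 12 of 28 alternatives, among them limma-voom (log2 fold change 0.05, adjusted p = 0.0374) and library totals alone (0.11, adjusted p = 5.63e-05). SRSF2IP was called higher under 6, among them leaving out UNC0642 recovery 4 (0.17, adjusted p = 0.000838 by edgeR), which had its lowest value, or 0 h 1 (0.13, adjusted p = 0.0382). Over all genes tested 47% were called, 23.6% lower and 23.4% higher, and of genes at least as abundant as the least abundant member 34.2% fell. The members' median log2 fold change was -0.20, against 0.01 over all genes, with 20 of 21 hnRNP genes and 11 of 11 SR genes lower. In 27 members the UNC0642 libraries were all below those at 0 h and in 0 all above, against 20.1% of genes in either direction. At an unadjusted p under 0.05, 2 members were higher by edgeR, and at an adjusted p none was by DESeq2 and 1 by limma-voom. Scaled by library totals alone 25 members fell and 2 rose, where 15.4% of all genes fell and 32% rose. Within the long-gap libraries 27 members fell and within the short-gap libraries 26. Of all genes 2272 and 2065 fell there, against 3007 in all libraries. Without the 6 libraries with COL1A2, which leaves a single 0 h library, the count lies within the range given at the end. This comparison shares its 0 h libraries with the one of DMSO recovery, and all 26 members lower after DMSO recovery were also lower here.

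The other 5 members lower here were not called after DMSO recovery, and whether the recoveries differed is given by their own comparison. HNRPLL was at -0.20 ± 0.05 against 0 h (adjusted p = 0.00137 by edgeR) and SRSF8 at -0.15 ± 0.05 (adjusted p = 0.0109), a call lost without UNC0642 recovery 1. The SRSF8 call was also lost with library totals alone (adjusted p = 0.124 by edgeR) and log2 FPKM (adjusted p = 0.178 by limma). In the long-gap libraries neither HNRPLL nor SRSF8 was called (adjusted p = 0.107 and 0.41 by edgeR). HNRNPA1L2 was at -0.20 ± 0.07 (adjusted p = 0.0141 by edgeR), lost without 0 h 1 or 0 h 2 and reversed to 0.043 without the libraries with COL1A2. Its call was also lost with library totals alone (adjusted p = 0.0798 by edgeR) and log2 FPKM (adjusted p = 0.11 by limma). HNRNPK was lost without 0 h 4 or UNC0642 recovery 3, and HNRNPH2 is described with the recoveries. The 11 SR genes ran from -0.25 for SRSF10 to -0.11 for SRSF7 in log2 fold change against 0 h. The change of SRSF7 was -0.05 and was not called with library totals alone (adjusted p = 0.149 by edgeR) or log2 FPKM (adjusted p = 0.13 by limma), and that of SRSF11 was -0.09 and was not called with log2 FPKM (adjusted p = 0.0628). SRSF3 changed by -0.23 ± 0.02, SRSF2 by -0.21 ± 0.02 and SRSF1 by -0.15 ± 0.02. In the U family HNRNPU changed by -0.20 ± 0.02, HNRNPUL2 by -0.18 ± 0.04 and HNRNPUL1 by -0.14 ± 0.03.

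The A/B family, whose proteins carry a pair of RNA recognition motifs and mostly a glycine-rich tail, was counted together with HNRNPD and HNRPDL. Of these 8 genes 8 were lower after UNC0642 recovery and 7 after DMSO recovery, against 23.6% and 21.7% of all genes. HNRNPAB was at -0.11 ± 0.02 after UNC0642 recovery, but at -0.05 and not called with library totals alone (adjusted p = 0.0538 by edgeR) and at -0.04 and not called with log2 FPKM (adjusted p = 0.0865 by limma). HNRNPA1 had 1741, 1714, 1694 and 1734 CPM after UNC0642 recovery, 1901, 1805, 1812 and 1804 CPM after DMSO recovery and 1952, 1969, 2019.8 and 2039 CPM at 0 h. HNRNPA2B1 had 1727, 1673, 1694 and 1692 CPM after UNC0642 recovery, 1859, 1819, 1808 and 1791 CPM after DMSO recovery and 1984, 1953, 1991 and 2039 CPM at 0 h. HNRNPA3, which also binds telomeric repeats, had 786, 756, 771 and 771 CPM after UNC0642 recovery, 844, 814, 819 and 825 CPM after DMSO recovery and 907, 891, 908 and 919.6 CPM at 0 h. In each of these 3 genes the UNC0642 libraries were lowest, the DMSO libraries intermediate and the 0 h libraries highest, with no overlap between any of the groups. Against 0 h, HNRNPA1 changed by -0.21 ± 0.02 after UNC0642 and -0.12 ± 0.02 after DMSO recovery. HNRNPA2B1 changed by -0.23 ± 0.02 after UNC0642 and -0.13 ± 0.02 after DMSO recovery, and HNRNPA3 by -0.23 ± 0.02 and -0.13 ± 0.02 in the same order.

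Between the recoveries few members differed. Of 33 members 4 were lower after UNC0642 than after DMSO recovery and 0 were higher, where 4.58% of all genes tested were called, 2.53% lower and 2.06% higher. Of genes at least as abundant as the least abundant member 2.81% were lower. Scaled by library totals alone 4 members were lower and 0 higher, against 2.26% and 2.38% of all genes. In 8 members every UNC0642 library was below every DMSO library and in 0 every one was above, against 5.42% and 5.05% of all genes. At an unadjusted p under 0.05, 9 were lower and 2 higher by edgeR, and DESeq2 and limma-voom each called 4 lower and 0 higher. The 4 were HNRNPA2B1 (log2 fold change -0.10 ± 0.02, adjusted p = 0.000461 by edgeR), HNRNPA3 (-0.10 ± 0.02, adjusted p = 0.00215), HNRNPA1 (-0.09 ± 0.02, adjusted p = 0.00424) and HNRNPH2 (-0.21 ± 0.05, adjusted p = 0.0103). In the first 3 all 4 UNC0642 libraries lay below all 4 DMSO libraries, and the folds were 1.07, 1.07 and 1.06. Within the long-gap libraries 3 members were lower, where 146 of all genes were lower, against 322 in all libraries. The short-gap count, with a single DMSO library, is given at the end. With the length-gap class as a covariate 6 were lower, HNRNPC (-0.06, adjusted p = 0.0382) and HNRNPH3 (-0.10, adjusted p = 0.0194 by edgeR) being added. Without the 6 libraries with COL1A2, which leaves 6, HNRNPA2B1 alone was called (adjusted p = 0.0471, the highest over its alternatives). The log2 fold changes there were -0.09 for HNRNPA3, -0.19 for HNRNPH2 and -0.06 for HNRNPA1.

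HNRNPH2, an X-linked F/H member close in sequence to HNRNPH1, had 70.6, 83.0, 71.9 and 68.9 CPM after UNC0642 recovery, 79.1, 87.9, 84.9 and 89.3 CPM after DMSO recovery and 90.6, 81.3, 75.4 and 78.9 CPM at 0 h. The library UNC0642 recovery 2 lay among the DMSO libraries, and the groups overlapped. The call was lost without UNC0642 recovery 1 (adjusted p = 0.0511 by edgeR, with a range of 0.000115 to 0.353 across alternatives) and with log2 FPKM (adjusted p = 0.104 by limma), while the log2 fold changes there, -0.19 and -0.21, were close to that of all libraries. Against 0 h, HNRNPH2 changed by -0.15 ± 0.05 after UNC0642 recovery, where its call was lost under 10 of 28 alternatives. Among them were leaving out 0 h 1 (log2 fold change -0.10) or each of 3 UNC0642 libraries. Others were library totals alone (-0.09, adjusted p = 0.167 by edgeR) and log2 FPKM (-0.09, adjusted p = 0.297 by limma). It was also lost within the long-gap (-0.15) and short-gap libraries (-0.14).

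No SR gene was called between the recoveries, where their log2 fold changes ran from -0.05 to 0.06. The 95% interval of the difference was -0.05 to 0.04 for SRSF1, -0.02 to 0.09 for SRSF2, -0.10 to 0.00 for SRSF3 and 0.00 to 0.12 for SRSF7. HNRPDL, HNRNPR and HNRNPF were not called either, with intervals of -0.01 to 0.11, -0.04 to 0.08 and -0.02 to 0.09. These intervals bound the differences and do not show that the recoveries were alike.

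**Figure D4:**
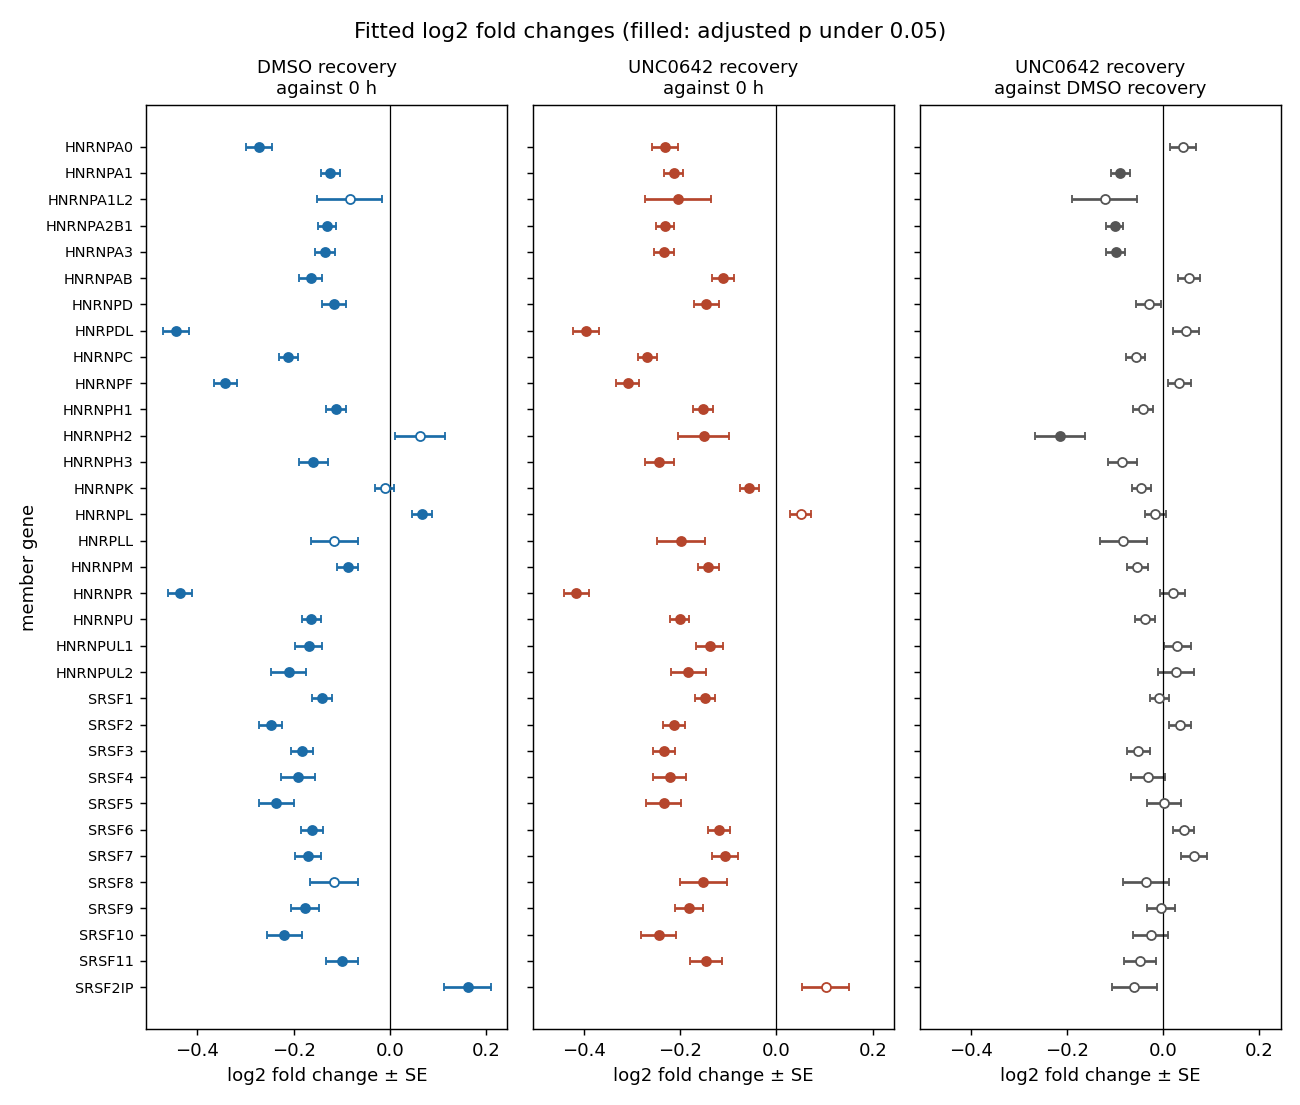
Log2 fold change (point) and standard error (bar) of each member in the comparisons of DMSO recovery with 0 h, UNC0642 recovery with 0 h and UNC0642 recovery with DMSO recovery, where filled points passed an adjusted p of 0.05. The first 2 panels share the 0 h libraries and lie mostly left of 0, and in the last HNRNPA1, HNRNPA2B1, HNRNPA3 and HNRNPH2 are filled.

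The deposited gene lengths gave a second readout. RSEM gives each gene a length averaged over its listed transcripts, weighted by their estimated abundance, so a shift in length reflects a shift in the estimated mix of transcripts. Of the members 22 list several transcripts and 11 a single one, whose length cannot vary. None of the 22 was called in any comparison by limma on log2 length (4632 genes tested). Over all genes 0.648% were called after UNC0642 recovery against 0 h, 0.799% after DMSO recovery against 0 h and 0.0216% between the recoveries. HNRNPC had the smallest adjusted p after UNC0642 recovery and HNRNPD after DMSO recovery. HNRNPC had mean transcript lengths of 3219.3, 3219.0, 3218.9 and 3220.4 bases after UNC0642 recovery, 3219.8, 3219.9, 3220.6 and 3221.0 after DMSO recovery and 3222.8, 3222.1, 3222.7 and 3222.9 at 0 h. Its 8 recovery libraries lay below the 4 at 0 h, with mean differences of -3.20 bases after UNC0642 recovery (adjusted p = 0.0745 by limma) and -2.27 bases after DMSO recovery (adjusted p = 0.2). HNRNPD differed from 0 h by -4.90 bases after UNC0642 recovery, with overlap (adjusted p = 0.262 by limma), and by -6.13 bases after DMSO recovery, without overlap (adjusted p = 0.145). HNRNPA2B1, whose A2 and B1 forms differ by a short exon, had 3672.2, 3673.0, 3672.6 and 3672.4 bases after UNC0642 recovery, 3672.8, 3673.1, 3672.9 and 3673.2 after DMSO recovery and 3674.1, 3674.0, 3674.2 and 3674.0 at 0 h. It too was shorter in all 8 recovery libraries without passing the test (adjusted p = 0.392 and 0.62 by limma). HNRNPAB was shorter without overlap after DMSO recovery (-6.22 bases, adjusted p = 0.341). Other genes went the other way. After UNC0642 recovery HNRNPF (4.02 bases) and HNRNPK (1.75 bases) were longer than at 0 h without overlap (adjusted p = 0.467 and 0.406 by limma). The UNC0642 libraries of HNRNPK also lay above its DMSO libraries by a mean of 2.32 bases, which was not called (adjusted p = 0.899 by limma). The share of all genes without overlap in length was not counted, so these separations have no background to be read against. These lengths cover the transcripts listed in the deposited files, and a poison exon outside them would not be seen.

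Some members start close to a gene on the opposite strand. By RefSeq annotation 11 members had such a start within 1000 bases, and 8 of those neighbours were tested. CBX3, which encodes an HP1 protein that binds methylated lysine 9 of histone H3, faces HNRNPA2B1 and changed by -0.17 ± 0.02 after UNC0642 recovery and -0.12 ± 0.02 after DMSO recovery against 0 h, both called. ENOPH1, a methionine salvage enzyme that faces HNRPDL, was at -0.12 ± 0.04 after UNC0642 recovery (adjusted p = 0.0125 by edgeR) and at -0.09 ± 0.04 after DMSO recovery (adjusted p = 0.0803). The other 6 (GLA, PBLD, RMI1, TTC9C, LRRC40 and DYNLL1) were not called in any comparison. Over all genes tested 23.6% were lower after UNC0642 recovery and 21.7% after DMSO recovery. The calls among these 8 neighbours do not stand out from those shares. Whether counting used strand is not given in the sources used here, and reads of overlapping genes cannot be told apart.

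Many other genes of the splicing machinery were lower against 0 h as well, to be read beside the 23.6% of all genes lower after UNC0642 recovery and 21.7% after DMSO recovery. The gene lists used here and below were chosen with earlier results of these data known. Their counts are descriptive and give no independent support. Among genes at least as abundant as the least abundant member these shares were 34.2% and 32.6%. Of 26 U1, U2 and Sm core genes 23 fell after UNC0642 recovery (median log2 fold change -0.16) and 20 after DMSO recovery (median -0.13), and 0 rose after either. SNRPD2, an Sm ring protein, changed by -0.38 ± 0.03 after UNC0642 and -0.34 ± 0.03 after DMSO recovery, and U2AF2, which binds the polypyrimidine tract, by -0.26 ± 0.03 and -0.25 ± 0.03. Of 37 tri-snRNP and catalytic genes 26 fell after UNC0642 and 25 after DMSO recovery and none rose, with PRPF4 at -0.24 ± 0.03 and the GTPase gene EFTUD2 at -0.20 ± 0.03 after DMSO recovery. Between the recoveries 2 genes of the catalytic list (DDX46, -0.13 ± 0.03, and CWC27, -0.18 ± 0.05) were lower after UNC0642.

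Partners of SR proteins were lower in part. Of 30 SR-related, SR kinase and import genes 17 fell after each recovery (56.7%, against 23.6% of all genes for UNC0642 and 21.7% for DMSO recovery), and the kinase gene CLK3 was the 1 that rose, after UNC0642 recovery (0.14 ± 0.06). TRA2A, an SR-like activator of exon inclusion, changed by -0.40 ± 0.04 after UNC0642 and -0.28 ± 0.04 after DMSO recovery, and it was also lower after UNC0642 than after DMSO recovery (-0.13 ± 0.04, adjusted p = 0.0351 by edgeR). SON, a large scaffold of nuclear speckles, changed by -0.17 ± 0.02 after DMSO recovery.

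Among 42 other splicing regulators and RNA-binding proteins, 25 fell after each recovery (59.5%), against 23.6% of all genes for UNC0642 and 21.7% for DMSO recovery. Of the 42, 4 rose after UNC0642 and 5 after DMSO recovery, against 23.4% and 22.4% of all genes. RBM3, a cold-inducible protein, changed by -0.57 ± 0.03 after UNC0642 and -0.50 ± 0.03 after DMSO recovery. PCBP1 (also hnRNP E1) changed by -0.34 ± 0.03 and RBMX (also hnRNP G) by -0.33 ± 0.02 after DMSO recovery. RBMX was higher after UNC0642 than after DMSO recovery (0.11 ± 0.02, adjusted p = 0.0059 by edgeR), as was RBM5 (0.17 ± 0.05). The 5 that rose after DMSO recovery were RBFOX2, MBNL2, MBNL3, FUBP1 and the epithelial regulator ESRP1.

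Of 15 nonsense-mediated decay and exon junction genes 10 fell after UNC0642 and 8 after DMSO recovery (66.7% and 53.3%, against 23.6% and 21.7% of all genes) and none rose, with the junction core gene RBM8A at -0.24 ± 0.03 after DMSO recovery. Of 11 arginine methyltransferase and cofactor genes 8 fell after each recovery (72.7%) and 1 (PRMT2) rose after UNC0642 recovery. PRMT1, the main enzyme for asymmetric methylation of hnRNPs, changed by -0.35 ± 0.03 after UNC0642 and -0.28 ± 0.03 after DMSO recovery. CLNS1A, a PRMT5 partner, changed by -0.42 ± 0.04 and -0.41 ± 0.04. Between the recoveries no gene of these last 2 lists was called by edgeR, where 1 was higher and 1 lower at an unadjusted p under 0.05.

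**Figure D5:**
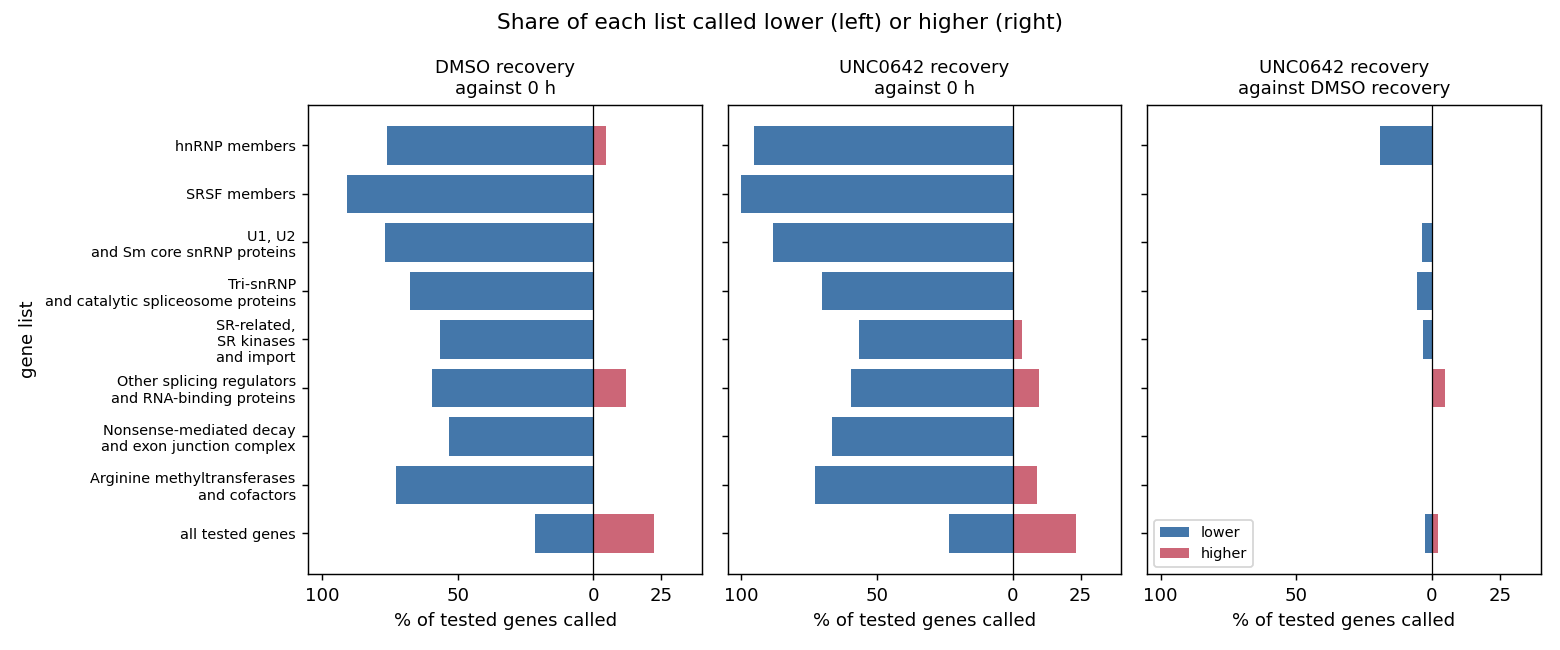
Share of tested genes called lower (bars to the left) or higher (to the right) in each comparison, in percent, for hnRNP members (21), SR members (11, without SRSF2IP), the 6 other lists and all 12741 genes tested. In the 2 panels against 0 h each list has more of its genes lower than all genes do (23.6% after UNC0642 and 21.7% after DMSO recovery), and in the panel of UNC0642 against DMSO recovery the bars are short. The lists were chosen with earlier results of these data known.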

How the data were processed

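Per the labels, Trizol was used to extract the total RNA behind these 12 HCT116 libraries. Per the submitters' processing notes the authors used RSEM 1.2.4 and Bowtie with build hg18. The deposited files give, per the file headers, expected counts (RSEM estimates), FPKM, gene lengths and effective lengths per gene. Strandedness is not given in the sources used here.

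Expected counts were rounded, filtered with filterByExpr and tested with edgeR 4.0.16 (quasi-likelihood, TMM) in R 4.3.3, using a group-means design fitted to the 12 libraries together. Calls are two-sided at a Benjamini-Hochberg adjusted p under 0.05 over 12741 genes. SEs come from the fit, and 95% intervals use 9 residual degrees of freedom, not those of the edgeR test. An interval can thus hold 0 at an unadjusted p under 0.05, as for SRSF3 between the recoveries (unadjusted p = 0.0347 by edgeR). The tests were tried on simulated counts. No pair of replicates was as alike as sampling noise alone would make it (18 pairs, chi-square divided by its degrees of freedom 2.03 to 3.57). Mean transcript length was tested with limma 3.58.1 on log2 length, an analysis chosen after the files were seen.

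Members and lists were chosen with earlier results of these data known. Values in every library are given for members with 1 of the 4 largest called rises or falls in a comparison and for the 3 with the highest mean FPKM. From the other lists up to 3 called genes with the smallest p per comparison were eligible, and genes named to complete a small count were chosen after their values were seen. Alternatives covered scaling, filters, gene length, the replicate block, length-gap class, libraries left out, DESeq2 1.42.0, limma-voom and limma on log2 FPKM (pseudocount 1 or 0.1).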

Additional observations from a re-analysis of the deposited data

Results flagged for a closer look

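In 5 of 99 sets of 4 libraries (33 members in 3 groups) a library stood apart from the other 3 by Dixon's 95% limit, a number that chance alone would give at about 5% of sets. HNRNPA1 was at 1901 CPM in DMSO recovery 1, against 1804 to 1812 CPM in the other DMSO libraries. HNRNPL was at 655 CPM in 0 h 3, against 634 to 636 CPM in the others at 0 h. SRSF2IP was at 117 CPM in UNC0642 recovery 4, against 140.4 to 145 CPM in the others of that group. SRSF7 was at 208 CPM in UNC0642 recovery 3, against 219 to 221 CPM. SRSF8 was at 46.4 CPM in UNC0642 recovery 1, against 52.2 to 53.1 CPM.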

How the results depend on the processing

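Counts of members that fell stayed within 1.5 times of those given for both comparisons with 0 h under each alternative (24 to 31 for UNC0642 recovery, 21 to 28 for DMSO recovery). Between the recoveries 4 were lower, with 6 with the length-gap class as covariate, 2 in the short-gap libraries alone, 1 without the COL1A2 libraries and 3 to 4 with each library left out in turn. Of the 2 that rose after DMSO recovery, 1 remained by count with the length trend removed and with DESeq2, and 0 in the short-gap libraries and without the COL1A2 libraries, and leaving out each library gave 1 to 2. After UNC0642 recovery none rose, against 2 with library totals only and with the length-gap class as covariate. That count was 1 with no filter, the stricter filter on low counts, effective length offsets, the length trend removed, the replicate block, the long-gap libraries, limma-voom and either FPKM setting, and 0 to 1 with each library left out. The fall after UNC0642 recovery reversed for HNRNPA1L2 without the COL1A2 libraries (0.043) and for HNRNPK with library totals only (0.0029) and log2 FPKM (0.0024 with either pseudocount). The cause was not tested.

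Over all genes, 49.8% of calls for UNC0642 recovery and 50.8% for DMSO recovery against 0 h were rises, and 67.5% for both with library totals only. Those that fell numbered 3007 after UNC0642 and 2766 after DMSO recovery, against 1959 and 1838 with library totals and 1885 and 1698 with log2 FPKM (1883 and 1701 with a pseudocount of 0.1). Calls in either subset of libraries were fewer, at 1348 higher and 1354 lower in short-gap libraries and 1424 and 1563 without the COL1A2 libraries for DMSO recovery, with fewer libraries compared. For UNC0642 recovery the short-gap libraries gave 1972 higher, against 2983, and those without COL1A2 1324 higher and 1512 lower. Between the recoveries, 262 were higher and 322 lower, against 125 and 146 in long-gap and 57 and 68 in short-gap libraries, 123 and 154 without COL1A2, and 201 lower with log2 FPKM (194 with a pseudocount of 0.1).

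Same-numbered libraries did not deviate together (correlations -0.103 to 0.0445), so the numbers do not pair them. With the replicate block 28 members fell and 2 rose after DMSO recovery, 31 fell and 1 rose after UNC0642 recovery, and 4 were lower between the recoveries. Lone libraries in a class or subset are assumed to vary like the others. Depth limits HNRNPA1L2, SRSF8, HNRPLL and HNRNPH2 most, which had the lowest counts.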
